A study of Mus musculus with 6 samples.

Results

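The genes described here were 8 regulators of acid and bicarbonate handling: the carbonic anhydrases Car14, Car12, Car9, Car2 and Car13, the bicarbonate cotransporter Slc4a7, and the lactate transporters Slc16a1 and Slc16a3. They were chosen by name as 8 of the 21938 protein-coding genes of the GENCODE mouse annotation (mm10). Each gene was taken with 10 kb on each side. Peaks of the 4 H3K27ac peak lists were merged across lists wherever they shared at least 1 bp, which gave 39 of the 182956 merged regions. Of all peaks, 10 over these genes came from LP replicate 1, 17 from LP replicate 2, 18 from HP replicate 1 and 23 from HP replicate 2.

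H3K27ac, acetylation of histone H3 on lysine 27, was profiled by chromatin immunoprecipitation and sequencing in B16 F10 mouse melanoma cells. The cells were untreated and grew at 100 cells/cm2 until day 5, and a flow cytometer then separated low-pigment (LP) from high-pigment (HP) cells of each culture by side scatter. There were 2 LP and 2 HP libraries, and 1 library of IgG-precipitated unsorted cells for each of the 2 replicate sets served as peak-calling control. The comparison addressed here was whether promoters and other acetylated elements of the pH regulators differed between LP and HP cells. Both groups were fractions of 1 cell line, so they differ in the scatter gate and share every other label. A bulk measurement of this kind cannot tell fewer acetylated cells from less acetylation per cell.

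Carbonic anhydrases convert carbon dioxide and water into bicarbonate and a proton, and back. Car9, Car12 and Car14 are anchored in the plasma membrane with the catalytic site facing outwards, whereas Car2 and Car13 are cytosolic. Slc4a7 (NBCn1) brings bicarbonate into the cell together with sodium, and the monocarboxylate transporters Slc16a1 (MCT1) and Slc16a3 (MCT4) carry lactate together with a proton. In pigment cells pH matters because tyrosinase, the enzyme that starts melanin synthesis, works poorly in an acidic melanosome. H3K27ac is a mark of active promoters and enhancers.

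The signal used throughout was the pileup at a peak summit, the number of overlapping fragments there, scaled to 1000000 fragments of the library (FPM). The libraries held 11467942 (LP replicate 1), 15353176 (LP replicate 2), 11483830 (HP replicate 1) and 14254904 (HP replicate 2) fragments, and the lists held between 57942 and 71529 peaks. The weakest peaks in the lists rested on 5 or 6 fragments, so a region missing from a list may still carry signal that was not detectable at this depth. Over the 12084 regions called in all 4 libraries the median log2 ratio of HP over LP was 0.92 (0.57 in replicate set 1 and 1.30 in replicate set 2), so most acetylated regions had higher pileup in HP. The same median was -0.09 after each library was centred on its own median, and ratios below are read against both. Promoters of 7 of 7 melanocytic marker genes (Mitf, Sox10, Dct, Tyr, Tyrp1, Pmel and Mlana) carried a peak in all 4 libraries. Of the markers of other cell types, Krt5, Ptprc, Cd3e and Cdh5 had no promoter peak, Krt14 had one in 1 library, Col1a1 and Pdgfra had one in 3 libraries, and Pecam1 had one in all 4, from 1.13 to 2.39 FPM.

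Promoter sequences show what kind of DNA carried or lacked the mark. RefSeq promoter windows (250 bases before to 50 after the start, GRCm38.p6, the same assembly as mm10) matched 6 of the 8 genes, and Car2 and Car13 had no entry. The windows of Car14 (chr3:95904636-95904935, minus strand), Car9 (chr4:43506776-43507075, plus strand), Slc16a1 (chr3:104638414-104638713, plus strand) and Slc16a3 (chr11:120948817-120949116, plus strand) follow, because they span the weak promoter with the largest ratio, a promoter with a peak in a single library, the strongest promoter, and a promoter with peaks beside it in HP alone. Capitals mark matches, on either strand, to 6 motifs. CACGTG is the E-box. Mitf binds the longer form TCACGTG, in which the E-box lies, as well as TCATGTG. Lef and Tcf factors bind CTTTGAT. Hypoxia-inducible factors bind the core ACGTG, which also lies inside the E-box, as well as the core GCGTG.
Car14: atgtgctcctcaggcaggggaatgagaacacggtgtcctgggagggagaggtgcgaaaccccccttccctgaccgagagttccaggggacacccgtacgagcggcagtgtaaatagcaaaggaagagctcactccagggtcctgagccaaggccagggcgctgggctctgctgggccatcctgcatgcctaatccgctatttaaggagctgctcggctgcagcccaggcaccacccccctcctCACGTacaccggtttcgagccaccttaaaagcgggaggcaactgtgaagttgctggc
Car9: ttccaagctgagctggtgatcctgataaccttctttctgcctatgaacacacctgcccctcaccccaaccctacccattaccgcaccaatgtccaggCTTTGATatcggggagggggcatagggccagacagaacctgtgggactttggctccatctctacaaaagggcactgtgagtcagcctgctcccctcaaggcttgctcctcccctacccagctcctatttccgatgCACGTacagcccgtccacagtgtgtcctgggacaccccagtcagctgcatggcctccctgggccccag
Slc16a1: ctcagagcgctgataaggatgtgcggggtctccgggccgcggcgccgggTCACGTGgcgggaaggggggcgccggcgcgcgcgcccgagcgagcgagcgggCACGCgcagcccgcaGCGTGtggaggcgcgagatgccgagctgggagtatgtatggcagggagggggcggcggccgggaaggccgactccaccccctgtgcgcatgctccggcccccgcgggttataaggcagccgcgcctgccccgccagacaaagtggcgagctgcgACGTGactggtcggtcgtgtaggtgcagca
Slc16a3: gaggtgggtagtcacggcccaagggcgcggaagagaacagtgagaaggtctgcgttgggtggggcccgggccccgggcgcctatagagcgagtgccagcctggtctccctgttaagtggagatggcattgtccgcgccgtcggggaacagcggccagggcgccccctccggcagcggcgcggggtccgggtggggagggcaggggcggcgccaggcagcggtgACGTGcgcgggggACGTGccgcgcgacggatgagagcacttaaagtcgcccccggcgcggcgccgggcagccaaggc

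The Slc16a1 and Slc16a3 windows were rich in CpG, with GC contents of 73.7% and 73.3% and observed over expected CpG ratios of 1.06 and 0.93. The median promoter among 21262 had a GC content of 56.3% and a CpG ratio of 0.57. The membrane carbonic anhydrases had fewer CpGs: the ratio was 0.47 for Car14, 0.36 for Car12 and 0.21 for Car9. TCACGTG was present in the Slc16a1 window and in 4.39% of all promoters, and CACGTG in 7.84% of all promoters. Car9 held 1 CTTTGAT, found in 3.22% of promoters. ACGTG was found in 20.9% of all promoters, with 1 match in Car14, 1 in Car9, 2 in Slc16a3 and 3 in Slc16a1. In Slc16a1, 2 of the 3 overlap within its TCACGTG, 1 on each strand, and 1 is a separate site. GCGTG, with 2 matches in Slc16a1, was found in 38.5% of promoters, and TCATGTG, with no match in the windows of the 6 genes, in 2.99%. The Car12 window (chr9:66713436-66713735) held none of the motifs. The RefSeq window of Slc4a7 (chr14:14718534-14718833) belongs to an internal start of the gene, away from its acetylated promoter, and is not printed.

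Every region of the pH regulators that all 4 libraries shared lay at a promoter. An own-promoter region was one within 3 kb of a TSS of the gene itself, a neighbour-promoter region one within 3 kb of the TSS of another gene, and the remaining regions were non-promoter. A peak at the own promoter was present in all 4 libraries for 5 of the 8 genes (Car14, Car9, Car13, Slc4a7 and Slc16a1), whereas 47.4% of protein-coding genes had one. Car12 had a promoter peak in 3 libraries. Slc16a3 had one in both HP and neither LP library, a pattern of 1.38% of protein-coding genes. Car2 had none, as did 27.7% of protein-coding genes.

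Of the 39 regions, 6 were called in all 4 libraries (15.4%, against 6.6% of all regions), and these were 5 own promoters and 1 promoter of a neighbour. There were 2 regions called in both HP and neither LP library (5.13%, against 3.94% of all regions), 1 at Slc16a3 and 1 in Car13, and 0 called in both LP and neither HP library. A single library called 28 of the 39 regions (71.8%, against 81.7% of all regions), with 5 to 21 fragments at the summit. The 18 non-promoter regions held 0 called in all 4 libraries, and 17 of them were called in 1 library, 9 in an HP and 8 in an LP library. The comparison of promoter with non-promoter elements on regions shared by all libraries therefore had no non-promoter value. The shares over all regions pool promoter and non-promoter regions. No share over non-promoter regions alone was computed, so the non-promoter counts cannot be called particular to these genes.

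**Figure D1:**
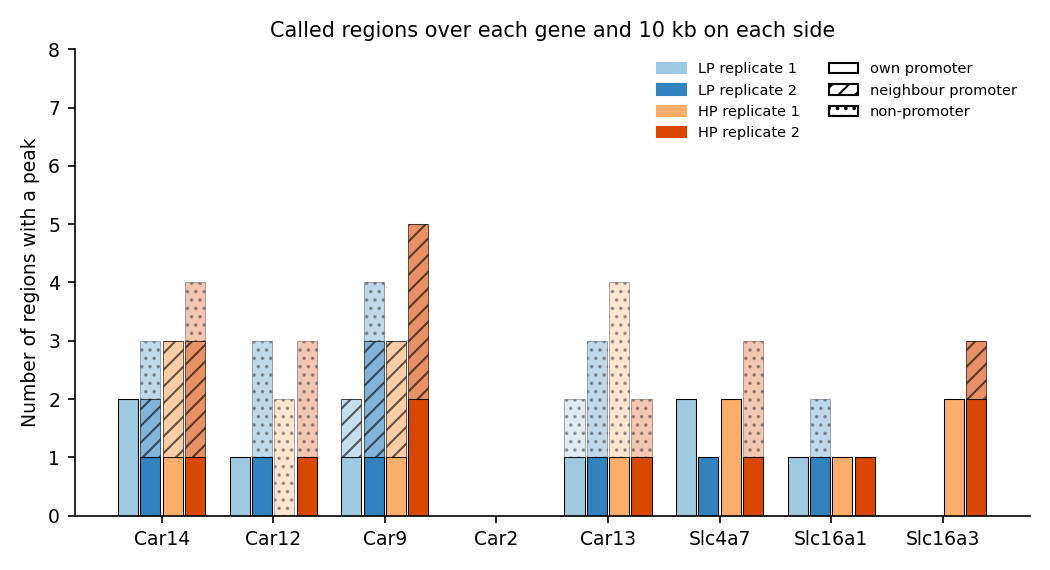
Number of merged H3K27ac regions with a peak (y axis) over each gene with its 10 kb flanks, with 1 bar per library (LP blue, HP orange), split by plain fill for own promoter, diagonal lines for neighbour promoter and dots for non-promoter. Car2 has no bar, Slc16a3 has bars in the HP libraries only, and the dotted non-promoter parts are spread over LP and HP libraries.

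Car14 had the largest log2 ratio of the 5 genes whose promoter could be tested. Its promoter region (chr3:95902036-95905806) reached from upstream of the TSS at chr3:95904691 into the first intron, and peaks of all 4 libraries spanned the TSS. LP replicate 1 had 0.70 and LP replicate 2 had 0.78, against 1.74 in HP replicate 1 and 3.51 in HP replicate 2 (LP 0.74 ± 0.06, HP 2.62 ± 1.25 FPM, mean ± SD, n = 2 each). Both HP values lay above both LP values, as they did in 74.8% of the regions called in all 4 libraries. The HP libraries differed from each other more than the LP libraries did.

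The log2 ratio of HP over LP at the Car14 promoter was 1.74 (95% interval 0.68 to 2.81, SE 0.54), a 3.35-fold difference, with a limma adjusted p of 0.0474 over all 12084 regions. Car14 was thereby the 1 region of these genes that passed the threshold of 0.05, as 4.01% of all tested regions did (485 higher and 0 lower in HP). The adjusted p was 0.0607 with the replicate set as a block, a fit that called 88 of all regions. It was 0.425 without LP replicate 1, 0.319 without LP replicate 2, 0.242 without HP replicate 2 and 0.00068 without HP replicate 1, so leaving out any library but the last ended the call. After centring each library the limma adjusted p was 1.00 and the log2 ratio was 0.73. The ratio was 1.32 within replicate set 1 and 2.17 within replicate set 2, and the ratio over both sets was larger than that of 97.2% of tested regions. The smallest two-sided p that an exact permutation of 2 against 2 libraries allows is 0.333, so no single region could pass such a test.

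The Car14 peak was also broader in HP. Peaks covered 674 bp in LP replicate 1, 1734 bp in LP replicate 2, 2815 bp in HP replicate 1 and 3257 bp in HP replicate 2. The covered length was thus 2.80 times as large in HP, while the median over regions called in all 4 libraries was 1.57 times and the Car14 value lay above that of 87.9% of them. The highest LP summits lay upstream, at -425 and -586 bp from the TSS, and LP replicate 2 had another summit in intron 1, 2496 bp past the TSS, at 0.65 FPM. The highest summit of HP replicate 1 lay 706 bp past the TSS in intron 1, and that of HP replicate 2 lay at -182 bp, with further summits 1498 and 2449 bp past the TSS. Another annotated start of Car14 lies at chr3:95903748. The HP replicate 1 summit was at -237 bp from that start, and the HP replicate 2 summit at 1498 bp was 555 bp past it. The highest summits compared between libraries were therefore not all nearest to the same start. Only 8 fragments in LP replicate 1 and 12 in LP replicate 2 supported the highest summit, against 20 and 50 in the HP libraries. The exact Poisson intervals were 0.30 to 1.37 and 0.40 to 1.37 FPM in LP and 1.06 to 2.69 and 2.60 to 4.62 in HP. Intervals of this kind cover counting error only.

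**Figure D2:**
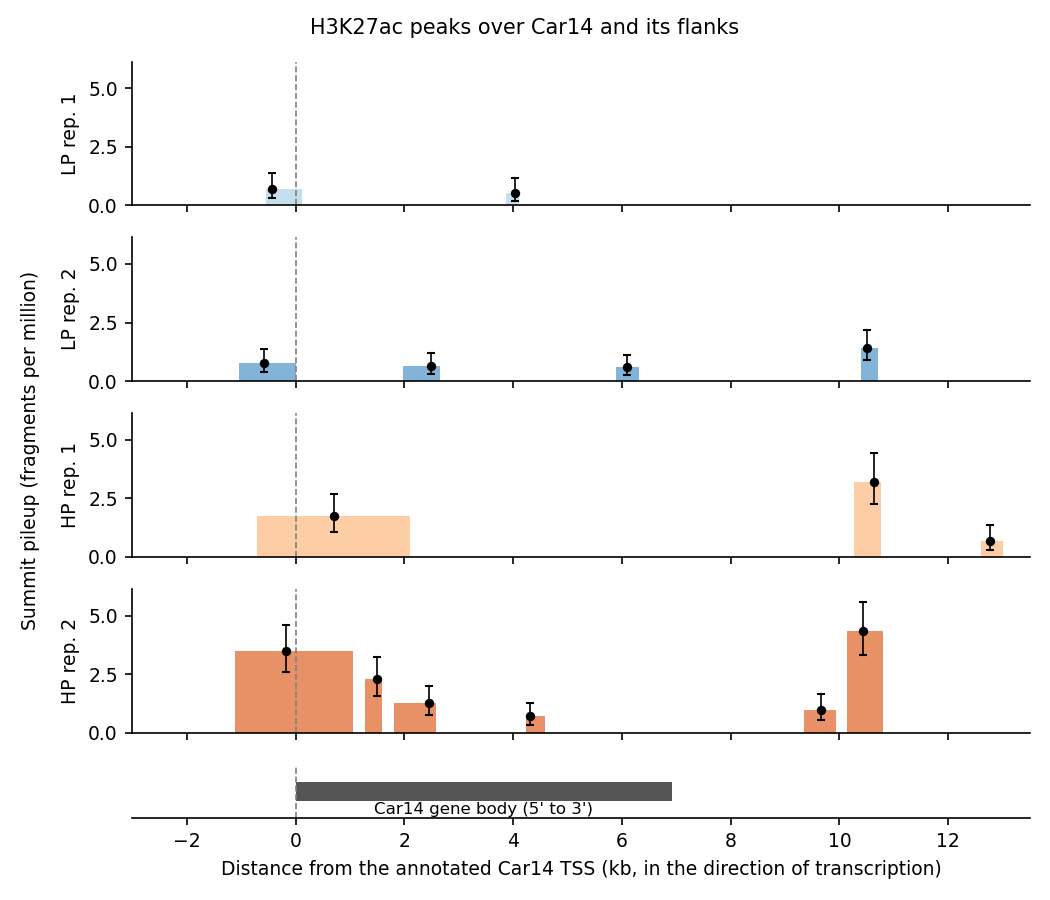
H3K27ac peaks over Car14 in each library, with the distance from the TSS in kb on the x axis and the summit pileup in FPM on the y axis. Shaded boxes span the called peaks, points mark summits with 95% Poisson intervals, and the dark bar is the gene. The boxes around the TSS are wider and taller in both HP libraries than in both LP libraries, and the peaks more than 9 kb past the TSS lie at the promoters of Aph1a and BC028528.

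Among promoters called in all 4 libraries Car14 was a weak one, with a mean pileup above 3.97% of them. Elsewhere in the gene it had 1 own-promoter region in intron 3, called in LP replicate 1 alone at 0.52. LP replicate 2 had a peak in intron 10 at 0.59 and HP replicate 2 had a peak in exon 4 at 0.70. Past the 3′ end, at the promoters of Aph1a (a subunit of gamma-secretase) and BC028528, a region (chr3:95893885-95894550) was called in LP replicate 2 at 1.43, in HP replicate 1 at 3.22 and in HP replicate 2 at 4.35, and not in LP replicate 1. The promoter patterns nearest to that of Car14, by Euclidean distance in log2 scaled pileup over the 4 libraries and among 10136 genes, were those of Cdc42ep5 (distance 0.23), Polr2k (0.27) and Syt9 (0.31).

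Car9, the membrane carbonic anhydrase best known as a hypoxia-induced gene, had its shared region inside the gene. The region (chr4:43508200-43509643) covered intron 2 and exon 3 around an internal TSS at 43508543 and fell within 3 kb of a predicted gene, Gm12454. LP replicates 1 and 2 had 0.96 and 1.04, and HP replicates 1 and 2 had 1.92 and 2.03. The groups did not overlap and the replicates of each lay close together. The log2 ratio was 0.98 (95% interval -0.08 to 2.05), with a limma adjusted p of 0.159, and it was -0.03 after centring. Peaks covered 420 and 584 bp for the LP libraries, against 1352 and 1038 bp for the HP libraries.

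The 5′-most Car9 start, whose sequence is printed above, had a peak in HP replicate 2 alone (chr4:43506936-43507224, 1.05 FPM, 15 fragments). Upstream, the promoter of Arhgef39 was called in all 4 libraries at 1.66 and 2.21 in LP and 1.92 and 5.89 in HP. There the groups overlapped, since LP replicate 2 lay above HP replicate 1, and the log2 ratio of 0.81 had a limma adjusted p of 0.221. The promoter of Tpm2 (tropomyosin 2), at the other end of the window, was called in LP replicate 2 at 1.50 and in HP at 2.70 and 2.39.

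Car12, a membrane enzyme like Car9, had weak and scattered peaks. At its TSS (chr9:66713448-66713993) LP replicate 1 had 0.61 and HP replicate 2 had 1.47 FPM, and the other two libraries had no call. LP replicate 2 had a separate peak in intron 1, 1129 bp past the TSS, at 0.59. Its 6 non-promoter regions were each called in 1 library, at 0.44 to 0.91. No Car12 region was shared by all libraries, so no ratio was tested.

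The cytosolic enzymes differed from each other. Car2, a widely expressed and highly active isoform, had no peak in any library anywhere in its window (chr3:14876273-14910770). Car13, on the same chromosome, had a promoter region over its TSS (chr3:14641388-14642180) in all libraries. LP values of Car13 were 2.79 and 3.26 and HP values 4.35 and 6.94, with no overlap between groups. Its log2 ratio was 0.87 (95% interval -0.20 to 1.93), with a limma adjusted p of 0.198, and it was -0.14 after centring.

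Within Car13, intron 2 held the non-promoter region called in both HP and neither LP library (chr3:14649143-14649403), 7563 bp past the TSS at the summit of HP replicate 2. It had 0.52 FPM (6 fragments) in HP replicate 1 and 1.05 (15 fragments) in HP replicate 2. The first lay near the weakest peak of its list, which rested on 5 fragments, and the second lay above the median of its list, 12 fragments. The 300 bases around it (chr3:14649124-14649423, plus strand of mm10) are shown because it was the single non-promoter element with this pattern.
Car13 intron 2 element: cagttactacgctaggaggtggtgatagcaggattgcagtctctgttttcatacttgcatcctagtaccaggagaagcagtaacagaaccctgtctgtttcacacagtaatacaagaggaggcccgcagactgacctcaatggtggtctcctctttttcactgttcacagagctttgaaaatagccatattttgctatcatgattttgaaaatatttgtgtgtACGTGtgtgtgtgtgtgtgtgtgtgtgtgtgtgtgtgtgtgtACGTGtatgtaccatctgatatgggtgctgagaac
Near the 3′ end of this stretch lies a TG repeat of 19 units, and 1.17% of the 7200 windows of this length at regions called in both HP and neither LP library had a TG repeat as long. Its 2 ACGTG matches, in capitals, lie at the ends of that repeat, and the first shares its closing TG with it. Of those windows, 16.2% held an ACGTG. The other non-promoter regions of Car13 were called in 1 library each, the highest in LP replicate 2 at 1.30, past the 3′ end of the gene.

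Slc4a7 and Slc16a1 had the strongest promoters of the 8 genes. The Slc4a7 region (chr14:14702706-14703967) lay around the TSS at 14703079, with summits 136 to 364 bp past it. LP values were 6.28 and 5.67, below the HP values of 9.14 and 11.7. The log2 ratio was 0.80 (95% interval -0.27 to 1.86, limma adjusted p 0.228), or -0.22 after centring. Its mean pileup lay above that of 78.9% of promoters called in all libraries. The other 4 regions of Slc4a7 were called in 1 library each, at 0.42 to 0.77.

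The Slc16a1 promoter (chr3:104637833-104640095) had 6.71 and 6.64 FPM in LP and 8.27 and 11.8 in HP. Its groups did not overlap either, and the log2 ratio of 0.56 (95% interval -0.50 to 1.63, limma adjusted p 0.359) was the smallest of the 5 gene promoters tested. This ratio was larger than that of 16.7% of tested regions, and after centring it was -0.45. Its mean pileup lay above that of 79.9% of promoters called in all libraries, and the highest summit of each library lay 144 to 297 bp past the TSS. HP replicate 1 had a further, weak summit 1136 bp past it, at 0.78 FPM. The non-promoter signal of Slc16a1 was 1 intronic peak in LP replicate 2 at 0.39.

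Slc16a3, the lactate exporter of glycolytic cells, had no LP peak in its window. HP replicate 2 had a peak of 1.47 FPM in intron 1 (chr11:120949146-120949719), just past the RefSeq promoter printed above, and HP replicate 1 had one of 0.70 further along (chr11:120950476-120950738). The region called in both HP and neither LP library (chr11:120951013-120951721) had 1.22 in HP replicate 1 and 0.91 in HP replicate 2. It counted as own promoter because it lay within 3 kb of the annotated TSS at 120948480, and another start of the gene, at 120951138, lay inside it. These peaks rested on 8 to 21 fragments. At the far end of the window, the promoter of Csnk1d (casein kinase 1 delta) had a peak in HP replicate 2 alone, at 0.63. The 300 bases around the shared region (chr11:120951218-120951517, plus strand of mm10) held none of the searched motifs.
Slc16a3 intron 1 element: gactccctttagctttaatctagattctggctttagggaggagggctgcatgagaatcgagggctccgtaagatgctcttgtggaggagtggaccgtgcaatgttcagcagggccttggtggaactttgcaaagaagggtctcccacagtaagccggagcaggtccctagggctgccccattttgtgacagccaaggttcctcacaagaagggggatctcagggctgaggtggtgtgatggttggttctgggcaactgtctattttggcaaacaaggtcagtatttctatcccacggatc

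**Figure D3:**
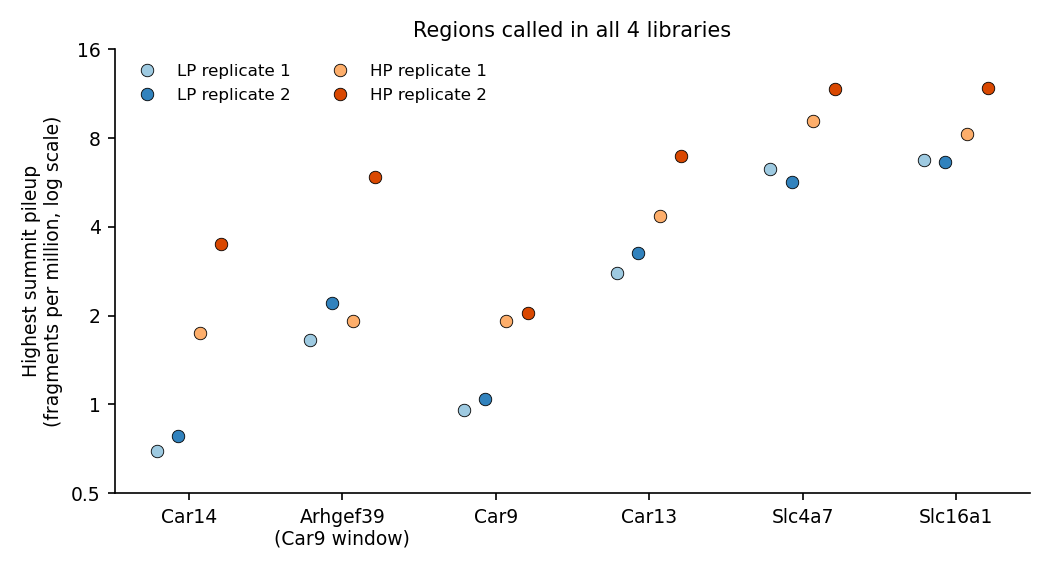
Highest summit pileup in FPM (y axis, log scale) of each region called in all 4 libraries, with 1 point per library (LP blue, HP orange). Both HP points lie above both LP points at Car14, Car9, Car13, Slc4a7 and Slc16a1, and at the neighbouring Arhgef39 promoter LP replicate 2 lies above HP replicate 1.

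Both HP values were above both LP values at 5 of the 5 gene promoters tested, beside the 74.8% of all regions given above. The order of the mean LP pileup was Slc16a1 (6.68), Slc4a7 (5.97), Car13 (3.02), Car9 (1.00) and Car14 (0.74). In HP the order was Slc4a7 (10.4), Slc16a1 (10.0), Car13 (5.65), Car14 (2.62) and Car9 (1.98). The values of Slc4a7 and Slc16a1 overlapped in HP and so did those of Car14 and Car9, whereas Car13 was apart from its neighbours in every library. The median log2 ratio over the 5 gene promoters was 0.87 and over all 12084 regions 0.92. After centring, 1 of the 5 ratios, that of Car14, was above 0, and their median was -0.14.

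**Figure D4:**
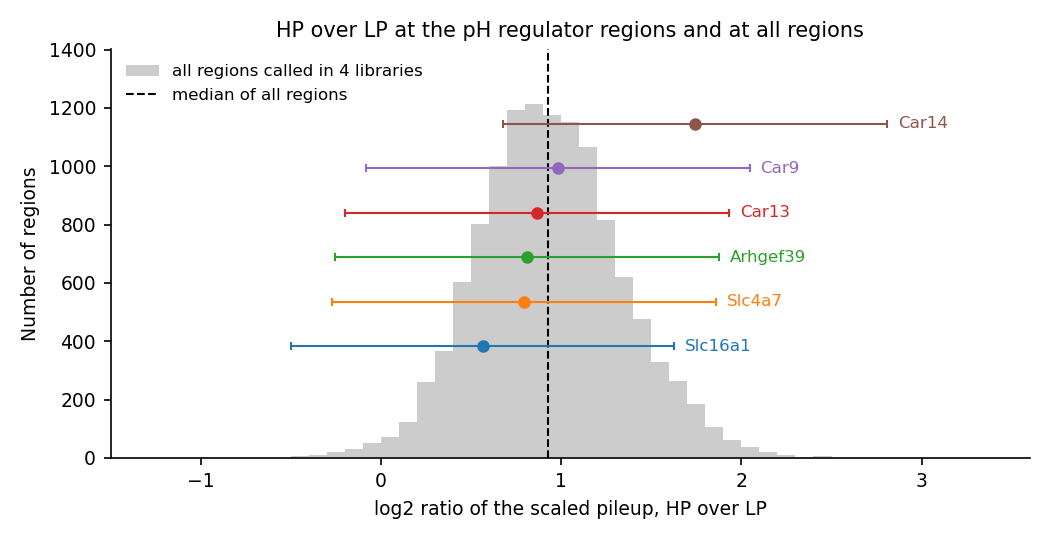
Histogram of the log2 ratio of HP over LP for the 12084 regions called in all 4 libraries (x axis log2 ratio, y axis number of regions), with the median of 0.92 as a dashed line. Points with 95% intervals are the 6 regions over the pH regulators, placed at arbitrary heights. Car14 lies to the right at 1.74 and the others lie between 0.56 (Slc16a1, to the left of the median) and 0.98 (Car9).

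The fold enrichment over the IgG control, given by the authors' peak caller at the same summits, ordered the libraries differently. At Car14 it was 5.22 in LP replicate 1, 3.12 in LP replicate 2, 4.88 in HP replicate 1 and 25.1 in HP replicate 2, so that in replicate set 1 LP lay slightly above HP. At Car9 the enrichment was 4.03 and 4.06 for LP, below the 7.81 and 8.45 for HP. At Car13 it was 6.66 and 18.7 for LP against 10.3 and 41.4 for HP, at Slc4a7 14.7 and 23.3 against 18.9 and 60.6, and at Slc16a1 32.1 and 45.6 against 32.6 and 81.9. Each replicate set had its own IgG control, with 8701778 control fragments in set 1 and 19358733 in set 2, so this measure is read within a set. Within each set HP lay above LP at Car9, Car13, Slc4a7 and Slc16a1. The share of all regions with this order was not computed, so the order cannot be called particular to these genes. The enrichment was examined after the pileup values were known and was not tested.

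The other genes of the same systems were read at their promoters. These were 33 further genes: carbonic anhydrases, bicarbonate transporters, sodium-proton exchangers and lactate transporters, together with Bsg, Emb and Hvcn1. Of the 33, 16 (48.5%, against 47.4% of protein-coding genes) had a promoter peak in all 4 libraries, 3 in 3 libraries, 3 in 2, 5 in 1 and 6 in none. Of the 14 with a tested promoter region, 2 were higher (14.3%, against 4.01% of all tested regions) and 0 lower in HP by limma, and 0 were called with the replicate block. Their median log2 ratio was 0.79, beside 0.92 over all regions, and -0.22 after centring, beside -0.09. Some tested regions also lay within 3 kb of a TSS of another protein-coding gene, so their signal cannot be assigned to the listed gene alone. These were Car5a (with Banp), Car7 (Nae1), Car11 (Dbp), Slc4a2 (Cdk5), Slc9a5 (Fhod1) and Emb (Gm17509).

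The called genes were Car6, a secreted carbonic anhydrase, and Slc4a2, a chloride-bicarbonate exchanger. The Car6 region had LP values of 0.78 and 2.80 FPM and HP values of 3.48 and 8.21, for a log2 ratio of 1.85 (limma adjusted p 0.0420, and 0.0552 with the replicate block). The LP libraries of Car6 differed widely. The Slc4a2 region, which also held the Cdk5 promoter, had LP values of 2.18 and 2.02 and HP values of 5.40 and 8.42, for a log2 ratio of 1.68 (limma adjusted p 0.0494, and 0.0623 with the replicate block). Bsg, which encodes the chaperone basigin that brings Slc16a1 and Slc16a3 to the cell surface, had 1.57 and 2.67 in LP and 3.05 and 9.19 in HP (log2 ratio 1.37, limma adjusted p 0.0844).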

How the data were processed

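H3K27ac was measured in 2 LP and 2 HP libraries sorted from B16 F10 cultures. The authors demultiplexed with bcl2fastq 2.20, trimmed with Trimmomatic 0.33 and fastp, aligned to mm10 with Bowtie2 2.5.1, marked duplicates, and called narrow peaks in each library against the IgG library of its replicate set with MACS3 3.0.0b1. Per the file headers, the deposited lists hold the pileup signal at each summit, the fold enrichment over control as a ratio, −log10 p and q values, and an integer score. A peak is listed only where it passed the q-value limit, so a missing peak is not a measured 0.

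Peaks were merged where they shared 1 bp, and a region took its highest summit pileup per 1000000 fragments (FPM) in each library, on a log2 scale with no pseudocount. Regions called in all 4 libraries were compared with limma 3.58.1 (R 4.3.3, two-sided, Benjamini-Hochberg adjustment over all 12084 regions), which was tested on simulated data. At the spread of these libraries it recovered 51.5% of 200 added changes of log2 2 and 100% of those of log2 4, with 5 false calls each. The simulated noise was independent between regions, with 1 spread taken from the differences between replicates. In these data those differences include a library-wide shift, with medians of 3.92 FPM in HP replicate 1 and 6.59 in HP replicate 2. The simulated libraries had no library-wide difference between LP and HP either, unlike these. The recovery and the false calls therefore need not hold for these libraries. The 485 calls are read beside the 36.2% of regions that were higher at an unadjusted p under 0.05. A limma value depends on the spread shared by all regions, because the fit gave every region the same SE. The labels and the series text say that LP and HP cells of a set came from the same culture and that the libraries of a set started from equal DNA, so the replicate number pairs them, although the differences between replicates correlated at 0.015 between LP and HP. Nothing says that the replicate sets came from separate cell stocks, so p-values measure the spread between these libraries. Genes, sequences and exons were taken from GENCODE and RefSeq tables on mm10.

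Named genes are the 8 members with all their regions, neighbours whose promoter lies in a window, the other pH regulators, markers, and the 3 promoters nearest to Car14. Bsg was picked for naming after its values were seen. The members and lists were chosen with earlier results of these data known. Alternatives were a q-value limit of 0.01 or 0.001, an overlap of 100 bp, windows of 3 and 50 kb, promoters within 1 kb, centring, quantile normalization, mean pileup, the replicate block and leaving out libraries.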

Additional observations from a re-analysis of the deposited data

How the results depend on the processing

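With the replicate block the count of regions over these genes that limma called higher fell from 1 to 0, and the Car14 ratio of 1.74 had an adjusted p of 0.0607, and no other call of these regions changed. The count was also 0 with a q-value of at most 0.001 (Car14 1.87, adjusted p 0.0555), after centring (0.73, 1.00), after quantile normalization (0.71, 1.00) and with the mean of the summit pileups (1.52, 0.132). When 1 library was left out the count ranged from 0 to 3 and the Car14 ratio from 1.24 to 2.25: its adjusted p was 0.425 without LP replicate 1, 0.319 without LP replicate 2, 0.242 without HP replicate 2 and 0.00068 without HP replicate 1, where Car13 (1.20, adjusted p 0.0430) and the neighbouring Arhgef39 promoter (1.62, 0.00881) were also called. A group left with 1 library was assumed to vary like the other group. Without HP replicate 1 the HP group was HP replicate 2 alone. That library had the highest median over regions called in all 4 libraries, 6.59 FPM against 3.92 in HP replicate 1. The share of all regions called in each of these fits is not given here, so their counts cannot be called particular to these genes.

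Centring and quantile normalization turned the median over the 6 shared regions from 0.84 to -0.17 and -0.10, and the median over own promoters from 0.87 to -0.14 and -0.065. They gave -0.14 and -0.14 at Car13, -0.45 and -0.30 at Slc16a1 and -0.22 and -0.065 at Slc4a7, and centring gave -0.030 at Car9. These alternatives remove the library-wide difference by construction.

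The 2 regions called in both HP and neither LP library became 1 with a q-value of at most 0.001, 6 in a 50 kb window, and 12 to 14 within a single replicate set. Within a single set the pattern means a call in HP and none in LP of 1 pair, and the reverse count is not given here. The 6 regions called in all libraries became 17 in a 50 kb window, where non-promoter regions first had a value (median log2 ratio 0.77). Their number, a centred value and the median over all non-promoter regions are not given here. The value is therefore not read as a difference from the own-promoter median of 0.87. No other setting gave a value for non-promoter regions. No share over all regions was computed for the changed counts, so they cannot be called particular to these genes. Depth limits the weak regions most, since their summits held 5 to 21 fragments.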
